A study of Homo sapiens with 4 samples.

Results

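The genes of 8 cell adhesion molecules, ICAM1, VCAM1, CD44, L1CAM, ALCAM, MCAM, F11R and EPCAM, were followed in T24 cells, an established line from a human bladder carcinoma. The rows were taken by gene name from the deposited table, and all 8 were found among its 60623 genes. The miR-146a-5p group held 2 libraries of cells labelled as overexpressing this microRNA, which the study's design text describes as transfection of a mimic, and the scramble group held 2 libraries of cells given a scramble control. Neither the dose nor the time of harvest is given in the sources used here. Whether libraries of the same group are separate cultures is not stated. Each p-value is therefore set against library-to-library spread that may be technical.

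Adhesion molecules are membrane proteins that hold a cell to its neighbours, to the matrix or to passing leukocytes. ICAM1 and VCAM1 carry immunoglobulin domains, bind integrins of leukocytes and are induced by inflammatory cytokines through the transcription factor NF-kB. CD44 is the main receptor for hyaluronan. L1CAM, ALCAM and MCAM are further immunoglobulin-type molecules that have been tied to tumour cell migration, while F11R (JAM-A) and EPCAM sit at contacts between epithelial cells. miR-146a-5p lowers its targets by pairing of its seed with their 3' UTR, and IRAK1 and TRAF6, which carry signals towards NF-kB, are its best known targets.

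Total estimated counts per library lay between 20290055 and 22774090. IRAK1, the check of the microRNA, had estimated counts of 2329 and 2217.3 in the miR-146a-5p libraries, against 11155 and 16314 in the scramble libraries, and fell by 2.50 on the log2 scale by DESeq2 (adjusted p = 5.03e-09), whereas edgeR gave -2.48 (adjusted p = 0.728). TRAF6 had 213 and 178 in the miR-146a-5p libraries, against 431.02 and 291 in the scramble libraries. It was not called (edgeR log2 fold change -0.78, adjusted p = 0.97). Its value was -0.45 without scramble replicate 1 and -1.03 without scramble replicate 2, fits that leave a single scramble library. Scramble replicate 2 stood apart: across the 14810 tested genes, the scramble pair differed more than 2-fold in 23.5% of genes, the miR-146a-5p pair in 2.71%. Of the urothelial markers, KRT7, KRT8 and KRT18 made up nearly all of the summed CPM (counts scaled to the library total). The sum was 3718 to 4046 CPM in miR-146a-5p libraries and 3801 to 5648 CPM in scramble libraries, while KRT5 and UPK3A were at 0. UPK1A, UPK1B, UPK2 and KRT20 were at most 0.132 CPM in any library, and GATA3 at most 1.23 CPM. PPARG had 28.55 and 28.29 CPM in miR-146a-5p and 40.78 and 45.45 CPM in scramble libraries. CDH1, the epithelial cadherin, was at most 0.0878 CPM. CLDN1, the other epithelial gene of its list, had 321.6 and 348.6 CPM in miR-146a-5p and 236.3 and 212.9 CPM in scramble libraries. The mesenchymal genes VIM (2590 to 3809 CPM over all libraries) and CDH2 (182.8 to 221.1 CPM) were high as well. Endothelial markers summed to 0.418 to 0.69 CPM in miR-146a-5p and 0.179 to 0.703 CPM in scramble libraries, and leukocyte markers to 0.739 to 1.21 CPM in miR-146a-5p and 1.12 to 1.80 CPM in scramble libraries. The 5 fibroblast markers, of which 1 was tested, summed to 4.22 to 4.68 CPM in miR-146a-5p and 1.92 to 2.64 CPM in scramble libraries. Most of this sum was COL1A1. In TPM, which also scales by length, COL1A1 overlapped between groups, at 0.66 and 0.95 in miR-146a-5p and 1.29 and 0.59 in scramble libraries. The CPM sum was higher in the same libraries as several members, and the part of these markers in the results was not tested.

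The mature microRNA and its target site are shown because they define which transcripts it can pair with. The seed, bases 2 to 8 counted from the 5' end, is in capitals in the microRNA (RefSeq, GRCh38.p14), and the matching 8 bases are in capitals in the upstream site of the IRAK1 3' UTR (GENCODE release 29, GRCh38, chrX:154011812-154011819, minus strand).
hsa-miR-146a-5p: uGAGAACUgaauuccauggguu
IRAK1 site: ccggaagtcaaAGTTCTCAtggtcaga
None of the 8 members held such a match. Their 3' UTRs, 421 bases in EPCAM to 3660 bases in F11R in the longest protein-coding transcript, were searched on the transcript strand for AGTTCTC, which pairs with bases 2 to 8, and for GTTCTCA, which pairs with bases 2 to 7 and ends in A. The 8-base site AGTTCTCA holds both. Matches were found in 0 of the members' 31 annotated protein-coding transcripts that have a 3' UTR, while 21% of 12343 tested genes had one in their longest. Absence of these letters says nothing of other modes of pairing. L1CAM has been described as a target of this microRNA in gastric cancer cells, and its 1149-base 3' UTR held no match of these kinds.

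Stretches of the ICAM1 and VCAM1 promoters are shown because NF-kB acts on both genes through sites close to the start of transcription. The motif GGNNNTTCC, a simplified NF-kB site read on both strands, is in capitals in windows from RefSeq (GRCh38.p14, plus strand, ICAM1 chr19:10270909-10270967 and VCAM1 chr1:100719655-100719713).
ICAM1: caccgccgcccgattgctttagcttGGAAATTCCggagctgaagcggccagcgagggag
VCAM1: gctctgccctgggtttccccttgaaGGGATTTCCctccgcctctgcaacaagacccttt
The capitals begin at position -186 from the start of ICAM1 and at -62 from that of VCAM1. A further VCAM1 match, read on the other strand and beginning at -219, is not shown. In windows of 250 bases before to 50 bases after each start, 20.1% of 35116 promoters held the motif, as did ICAM1, VCAM1 and MCAM among the 6 members with an entry. These matches are letters only and no binding was measured.

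On the TPM scale (transcripts scaled by length and library by the authors), levels can be compared between genes. CD44 was the most abundant member, at 677 ± 11.02 TPM in miR-146a-5p cells and 542 ± 41.5 TPM in scramble cells (SD, n = 2 each). By mean TPM it was followed by L1CAM, ALCAM, MCAM, ICAM1, F11R and EPCAM, the last at 1.22 ± 0.00707 TPM in miR-146a-5p and 0.77 ± 0.0849 TPM in scramble cells. The order was the same in both groups. No neighbours in it overlapped in the miR-146a-5p libraries, but in the scramble libraries ALCAM overlapped both L1CAM and MCAM. CD44 ranked 198 by mean TPM in miR-146a-5p cells and 230 in scramble cells among all 60623 genes. VCAM1 was listed at 0 in all 4 libraries.

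**Figure D1:**
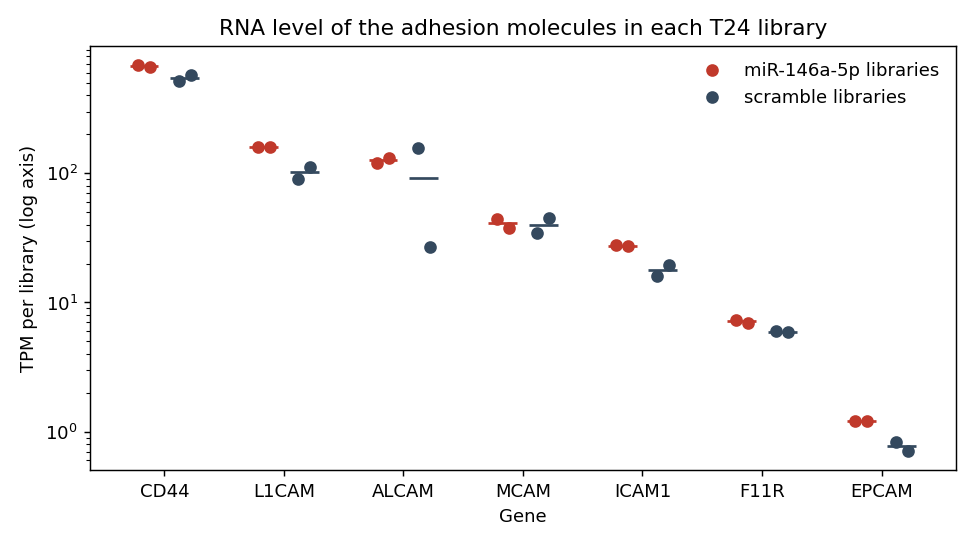
TPM on a log axis for the 7 members with counts, with a point per library and a line at each group's mean, miR-146a-5p left of scramble. CD44 lies highest, at 669.2 to 684.78 TPM in miR-146a-5p libraries and 512.48 to 571.11 TPM in scramble libraries, and the ALCAM scramble points lie far apart.

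Of the 8 members, 7 passed the filter on low counts, and edgeR's quasi-likelihood test with Benjamini-Hochberg adjustment called 0 of them, as it called 0% of the 14810 tested genes. DESeq2 on the same counts also called 0 of the 7, against 0.351% of all tested genes, and in the authors' deposited table none of the 8 is listed as significant. At an unadjusted edgeR p under 0.05 stood CD44, L1CAM and F11R, 3 of 7, against 3.71% of tested genes. Log2 fold changes of miR-146a-5p over scramble were above 0 for 7 of 7, with a median of 0.59 against a median of 0 over all tested genes. In ICAM1, CD44, L1CAM, F11R and EPCAM both miR-146a-5p libraries lay above both scramble libraries, 5 of 7, against 18.0% of tested genes. The reverse order, seen in 17.9% of tested genes, occurred in 0 members. The members were chosen with earlier results of these data known, so shares beside all tested genes describe them and test nothing. With 2 libraries against 2, an exact two-sided permutation test of any gene alone cannot go below 0.333. Fewer cells with a transcript and less RNA per cell cannot be told apart in these bulk samples.

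ICAM1, the ligand of the leukocyte integrin LFA-1, had 27.62 and 27.55 TPM in the miR-146a-5p libraries, against 16.08 and 19.59 TPM in the scramble libraries. The gene lies at chr19:10270835-10286615 on the plus strand (GRCh38, GENCODE release 29, as for the other members). The groups did not overlap, and the miR-146a-5p pair lay closer together than the scramble pair. Its estimated counts were 1358.74 and 1260.59 in miR-146a-5p and 776 and 1104 in scramble cells, or 62.6 ± 0.658 CPM in miR-146a-5p and 41.6 ± 9.77 CPM in scramble cells (SD, n = 2 each). The edgeR log2 fold change was 0.59 ± 0.25 (SE, 95% interval -0.09 to 1.26, adjusted p = 0.97). ICAM1 shares 815 exon bases with the opposite-strand gene AC011511.5, which had estimated counts of 2.26 and 3.95 in miR-146a-5p libraries and 0 in both scramble libraries.

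VCAM1, the ligand of the integrin VLA-4, had 0 counts in each library, which allows up to 3 counts, or 0.132 to 0.148 CPM, for counting error alone. VCAM1 maps to chr1:100719742-100739045 on the plus strand. Of the members known for induction by NF-kB, ICAM1 was measured far above that floor and VCAM1 was not detectable at this depth. SELE and SELP, selectins that slow leukocytes on vessel walls, were at 0 in all libraries as well. ICAM2, ICAM3 and ICAM5, relatives of ICAM1, were tested, overlapped between groups in CPM and were not called. ICAM3 had 2.09 ± 0.791 CPM in miR-146a-5p and 1.35 ± 0.829 CPM in scramble cells, and ICAM5 had 2.42 ± 0.709 CPM in miR-146a-5p and 2.63 ± 0.689 CPM in scramble cells (SD, n = 2 each). In TPM the ICAM3 groups did not overlap, at 4.41 and 2.72 in miR-146a-5p and 1.23 and 2.37 in scramble libraries, and it was called higher without scramble replicate 2 (1.47, edgeR adjusted p = 0.0247) but not without scramble replicate 1 (0.12, 0.828). ITGB2, the shared chain of the leukocyte integrins that bind ICAM1, was the only tested gene of its list of 8, with 4.12 ± 1.36 CPM in miR-146a-5p and 6.92 ± 1.70 CPM in scramble cells (edgeR log2 fold change -0.75 ± 0.37, adjusted p = 0.97). Both miR-146a-5p values lay below both scramble values, and it was called lower without scramble replicate 1 (-0.98, edgeR adjusted p = 8.4e-05) but not without scramble replicate 2 (-0.47, 0.21). ITGA4, the alpha chain of VLA-4, was at 0 in all libraries.

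CD44 had 684.78 and 669.2 TPM in the miR-146a-5p libraries, against 512.48 and 571.11 TPM in the scramble libraries. CD44 maps to chr11:35138870-35232402 on the plus strand. Both miR-146a-5p values lay above both scramble values. Its estimated counts were 25510 and 24345 in miR-146a-5p and 19684 and 21699 in scramble cells, the deepest of the members. The edgeR log2 fold change was 0.38 ± 0.13 (SE, 95% interval 0.03 to 0.73, unadjusted p = 0.0399, adjusted p = 0.97). CD44 is spliced into many forms, which a count per gene does not separate. The length implied by its counts and TPM, scaled so that the median gene of a library meets its listed length, was 2654 and 2783 bases in miR-146a-5p and 2755 and 2379 bases in scramble libraries, below the 5732 bases listed for the gene.

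Of 17 listed genes of hyaluronan synthesis, binding and turnover, of CD44 linkers to the cytoskeleton and of its splicing, 12 were tested, edgeR and DESeq2 called 0, and the median log2 fold change was 0.17. HAS3, a hyaluronan synthase, had 45.6 ± 1.72 CPM in miR-146a-5p cells, against 61.7 ± 6.55 CPM in scramble cells, below both scramble libraries (edgeR log2 fold change -0.44 ± 0.20, adjusted p = 0.97). HMMR, a hyaluronan receptor that also serves the mitotic spindle, had 147.6 and 165.5 CPM in miR-146a-5p and 102.9 and 23.54 CPM in scramble libraries (1.31 ± 0.73, edgeR adjusted p = 0.97), with scramble replicate 2 far below the other libraries. HMMR was called higher against either scramble library alone, at 2.73 without scramble replicate 1 (edgeR adjusted p = 1.18e-149) and 0.62 without scramble replicate 2 (6.32e-11). HAS3 was called lower in both of these fits, at -0.54 (edgeR adjusted p = 1.47e-07) without scramble replicate 1 and -0.31 (0.0117) without scramble replicate 2. Ezrin (EZR), which ties CD44 to actin, had 545.7 and 521.4 CPM in miR-146a-5p and 426.6 and 466.4 CPM in scramble libraries, and moesin (MSN) overlapped between groups. ESRP1, a splicing factor that favours the epithelial variants of CD44, was low in all libraries, at 1.11 and 1.58 CPM in miR-146a-5p and 1.30 and 0.571 CPM in scramble libraries.

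L1CAM, a neural adhesion molecule found at the invasive edge of several carcinomas, had 160.56 and 160.27 TPM in the miR-146a-5p libraries, against 90.05 and 112.48 TPM in the scramble libraries. Its position is chrX:153861514-153886174 on the minus strand. The miR-146a-5p pair was nearly equal and lay above both scramble values. In CPM the means were 457 ± 0.0606 in miR-146a-5p and 288 ± 58.2 in scramble cells (SD, n = 2 each). Of the members it had the smallest unadjusted p, 0.027, with an edgeR log2 fold change of 0.66 ± 0.20 (SE, 95% interval 0.12 to 1.21, adjusted p = 0.97), and it ranked 285 of 14810 by p. Its close relative NRCAM had 7 and 17 estimated counts in miR-146a-5p and 19 and 0 in scramble libraries, and CHL1 was at 0 in all 4.

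ALCAM, which binds itself on a neighbouring cell and CD6 on lymphocytes, had 120.24 and 130.69 TPM in the miR-146a-5p libraries, against 157.28 and 26.68 TPM in the scramble libraries. The gene lies at chr3:105366909-105576900 on the plus strand. The scramble values enclosed both miR-146a-5p values. Its estimated counts were 9448 and 9554 in miR-146a-5p and 12275 and 2400 in scramble cells. In CPM scramble replicate 1 was 5.20 times scramble replicate 2. The edgeR log2 fold change of 0.48 ± 0.79 (SE, 95% interval -1.67 to 2.62, adjusted p = 0.97) spans that gap. Without scramble replicate 2 the value was -0.26 (edgeR adjusted p = 0.0244) and without scramble replicate 1 it was 2.11 (edgeR adjusted p = 6.34e-105), so its direction depended on which scramble library was kept. By limma-voom on all 4 libraries it was 0.92 (adjusted p = 0.866). CD6 had at most 0.0447 CPM in any library.

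MCAM (CD146), a molecule of vessel walls and melanoma, had 44.3 and 37.45 TPM in the miR-146a-5p libraries, against 34.69 and 45.13 TPM in the scramble libraries. Its position is chr11:119308529-119321521 on the minus strand. The groups overlapped, and the edgeR log2 fold change was 0.07 ± 0.25 (SE, 95% interval -0.60 to 0.74, adjusted p = 0.974). Its sign turned without scramble replicate 1 (-0.16, edgeR adjusted p = 0.107), while without scramble replicate 2 it was 0.35 (edgeR adjusted p = 0.00091). MCAM shares 509 exon bases with CBL on the opposite strand, and CBL had 2678 and 2677 estimated counts in miR-146a-5p and 3194 and 3034 in scramble libraries. Pericyte and smooth muscle markers, a tissue in which MCAM is high, summed to 10.5 to 13.4 CPM in miR-146a-5p and 9.47 to 14.0 CPM in scramble libraries. Most of that sum was CSPG4, at 6.545 and 9.561 CPM in miR-146a-5p and 6.611 and 11.68 CPM in scramble libraries. The labels do not say that strand was used in counting, so reads from the shared bases cannot be told apart.

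F11R, a tight junction molecule that recruits polarity proteins, had 7.32 and 6.96 TPM in the miR-146a-5p libraries, against 6.02 and 5.89 TPM in the scramble libraries. F11R maps to chr1:160995211-161021348 on the minus strand. The groups did not overlap on either scale. The difference was larger in counts than in TPM. Estimated counts were 583 and 504.73 in miR-146a-5p, against 350 and 425.09 in scramble cells, with an edgeR log2 fold change of 0.60 ± 0.22 (SE, 95% interval 0.01 to 1.19, unadjusted p = 0.0485, adjusted p = 0.97), whereas limma on log2(TPM + 1) gave 0.23. The implied length was 5673 and 5548 bases in miR-146a-5p, against 4170 and 4520 bases in scramble libraries, a range of 0.44 on the log2 scale where the median of 11796 genes was 0.135 and the upper quartile 0.285. Whether the libraries differed in F11R transcript forms was not tested. The overlapping gene AL591806.3, which shares 1853 exon bases on the same strand, had at most 2.27 counts.

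EPCAM, the epithelial adhesion molecule, was barely present, with 1.21 and 1.22 TPM in the miR-146a-5p libraries, against 0.83 and 0.71 TPM in the scramble libraries. The gene lies at chr2:47345158-47387601 on the plus strand. These levels rested on 32 and 30 counts in miR-146a-5p and 19 and 20 counts in scramble cells. Its edgeR log2 fold change, 0.77, was the highest of the 7 with a standard error second to that of ALCAM (SE 0.35, 95% interval -0.17 to 1.72, edgeR adjusted p = 0.97). On the log2(TPM + 1) scale, which understates changes of low genes, it was 0.32. Of 4 listed partners of EPCAM, 3 were tested and 0 called. CLDN7, which binds EPCAM, had 0.432 ± 0.0859 CPM in miR-146a-5p and 0.664 ± 0.00802 CPM in scramble cells. Its miR-146a-5p libraries lay below both scramble libraries in CPM but overlapped them in TPM, at 0.46 and 1.32 in miR-146a-5p and 0.97 and 0.75 in scramble libraries. The edgeR log2 fold change was -0.62 ± 0.45 (adjusted p = 0.97), and limma on log2(TPM + 1) gave -0.013.

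Because the scramble pair was spread so widely, the fit was repeated with each scramble library left out, with the spread taken from the miR-146a-5p libraries and assumed to hold for the single scramble library. Without scramble replicate 2, edgeR called ICAM1, CD44, L1CAM, MCAM and F11R higher, 5 of 7 members, against 10.1% of tested genes, and called ALCAM lower, 1 of 7, against 11.7%. Without scramble replicate 1 it called ICAM1, CD44, L1CAM, ALCAM and F11R higher, 5 of 7, against 28.5% of tested genes, and 0 lower, against 26.4%. ICAM1, CD44, L1CAM and F11R, 4 of 7 members, were thus called higher against either scramble library alone, as were 4.07% of the genes tested both ways. These calls share the miR-146a-5p libraries and are not independent of each other. As the members were chosen with earlier results of these data known, the shares are description only. On the log2 scale ICAM1 was at 0.37 without scramble replicate 1 and 0.86 without scramble replicate 2, with edgeR adjusted p-values of 0.000472 and 6.66e-15. Without scramble replicate 1, CD44 was at 0.32 (edgeR adjusted p = 0.00248), L1CAM at 0.48 (3.94e-07) and F11R at 0.48 (0.000678). Without scramble replicate 2, CD44 was at 0.45 (edgeR adjusted p = 7.45e-05), L1CAM at 0.90 (4.06e-20) and F11R at 0.74 (1.35e-06). EPCAM gave 0.75 and 0.81 and was called in neither (edgeR adjusted p = 0.252 without scramble replicate 1 and 0.339 without scramble replicate 2). Without miR-146a-5p replicate 1, ICAM1 was at 0.58, CD44 at 0.39, L1CAM at 0.67 and F11R at 0.54. Without miR-146a-5p replicate 2, these members were at 0.61, 0.38, 0.68 and 0.67.

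**Figure D2:**
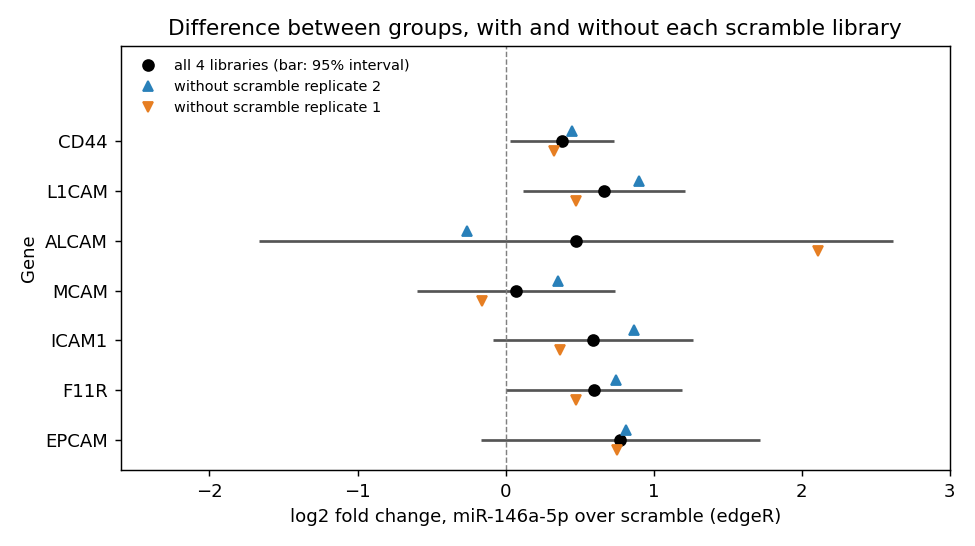
Log2 fold change of miR-146a-5p over scramble for the 7 tested members by edgeR, with the 95% interval from all 4 libraries (circle and bar) and the value without each scramble library (triangles). CD44, L1CAM, ICAM1, F11R and EPCAM stay right of 0 in all 3 fits, while ALCAM (-0.26 and 2.11) and MCAM (0.35 and -0.16) lie on both sides.

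The gap within the scramble pair moved with the GC content of transcripts. When tested genes were split into 5 equal bins of GC content, in the lowest bin, 27.8 to 40.8%, the median difference of scramble replicate 2 minus replicate 1 was -1.53 in log2 CPM, and in the highest bin, 57.7 to 75.2%, it was 0.51, while the miR-146a-5p pair had medians of 0.08 and -0.06. ALCAM, the member with the lowest GC content among those tested (39.6%), had -2.38 within the scramble pair and 0.08 within the miR-146a-5p pair. L1CAM (60.0%), ICAM1 (56.9%) and MCAM (55.1%) had 0.41, 0.48 and 0.50 within the scramble pair. CD44 (45.3%), EPCAM (47.0%) and F11R (47.6%) had 0.12, 0.04 and 0.25, the smallest gaps of the members. With offsets for GC content and length, ALCAM was at 0.37 (edgeR adjusted p = 0.735), L1CAM at 0.84 (0.167) and ICAM1 at 0.74 (0.2), and 0 members were called by edgeR.

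**Figure D3:**
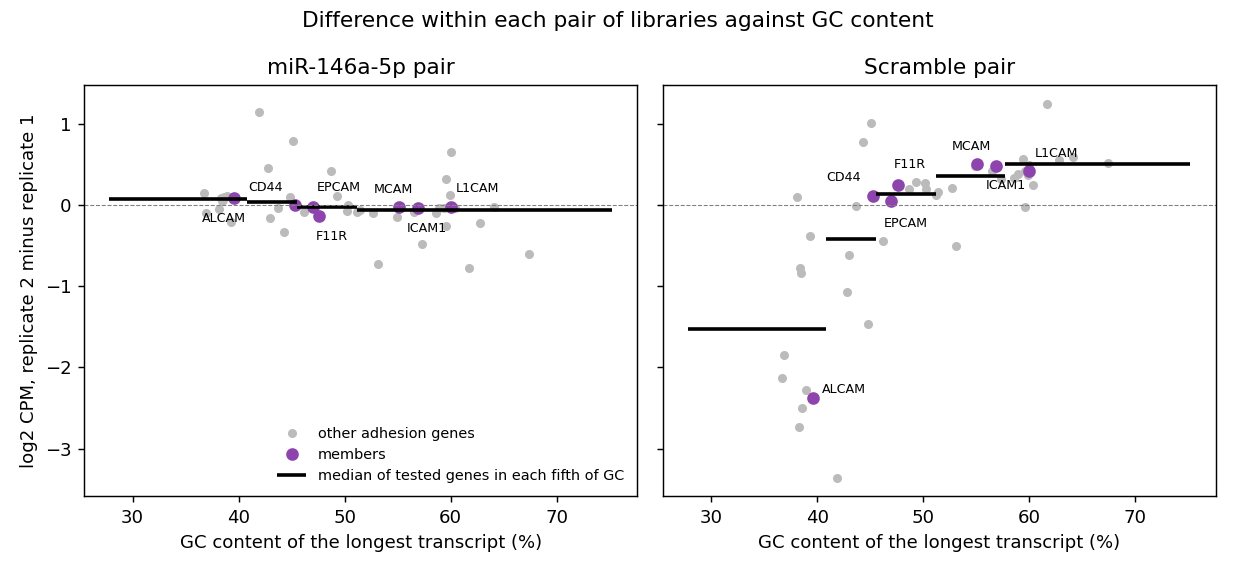
Log2 CPM of replicate 2 minus replicate 1 against the GC content of the longest transcript, for the miR-146a-5p pair (left) and the scramble pair (right), with members in purple, other tested adhesion genes in grey and the median of tested genes in each of 5 GC bins as bars. ALCAM sits at -2.38 in the scramble pair and 0.08 in the miR-146a-5p pair.

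The other adhesion genes did not share one direction. Of 73 listed genes in 7 groups, 40 were tested, edgeR and DESeq2 called 0, and 1 had an unadjusted edgeR p under 0.05. Their median log2 fold change was 0.03, with 21 above and 19 below 0. Both miR-146a-5p libraries lay above both scramble libraries in 8 and below in 8, against 18.0% and 17.9% of tested genes. Fits without a scramble library called some of these genes higher and some lower, as they did for many of all tested genes. CADM1, a nectin-like molecule, had the unadjusted p of 0.0191, with 19 and 14 estimated counts in miR-146a-5p and 2 and 5 in scramble libraries (edgeR log2 fold change 2.30 ± 0.63, adjusted p = 0.97). It was at 3.07 without scramble replicate 2 (edgeR adjusted p = 0.0371) and 1.82 without scramble replicate 1 (0.086). In TPM the groups overlapped, at 0.24 and 0.41 in miR-146a-5p and 0.14 and 0.43 in scramble libraries, and limma on log2(TPM + 1) gave 0.05. Of the list genes named here, CADM1 holds 4 seed matches in its 3' UTR, HAS3 2, ADAM17 2 and ADAM10 1. AFDN, the adaptor that links nectins and F11R to actin, had 64.1 ± 2.02 CPM in miR-146a-5p and 41.9 ± 8.93 CPM in scramble cells (0.61 ± 0.24, edgeR adjusted p = 0.97). BCAM, a laminin receptor of the immunoglobulin type, had 19.2 ± 0.0333 CPM in miR-146a-5p and 27.5 ± 7.97 CPM in scramble cells (SD, n = 2 each). CD58, the ligand of CD2, had 16.8 ± 1.11 CPM in miR-146a-5p and 12.8 ± 3.85 CPM in scramble cells, and neither was called with all 4 libraries. Without scramble replicate 1, edgeR called AFDN higher (0.85, adjusted p = 1.77e-15), BCAM lower (-0.79, 8.37e-10) and CD58 higher (0.74, 9.47e-06). Without scramble replicate 2 it called AFDN (0.42, adjusted p = 0.000195) but neither BCAM (-0.18, 0.385) nor CD58 (0.13, 0.602).

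Enzymes that shed adhesion molecules from the surface were close to even, with 6 of 7 tested and a median of 0.03. ADAM10, which cuts CD44 and L1CAM, had 104.3 and 111.9 CPM in miR-146a-5p and 141.6 and 21.25 CPM in scramble libraries, with scramble replicate 2 low as in ALCAM, at a GC content of 38.3%. ADAM17, which cuts ICAM1, VCAM1 and L1CAM, had 38.39 and 40.66 CPM in miR-146a-5p, against 59.67 and 33.46 CPM in scramble libraries, with an edgeR log2 fold change of -0.24 ± 0.34 (adjusted p = 0.97). The sign turned with the scramble library kept, at 0.24 without scramble replicate 1 (edgeR adjusted p = 0.0546) and -0.58 without scramble replicate 2 (2.16e-07), and it was -0.765 with GC and length offsets (0.42).

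**Figure D4:**
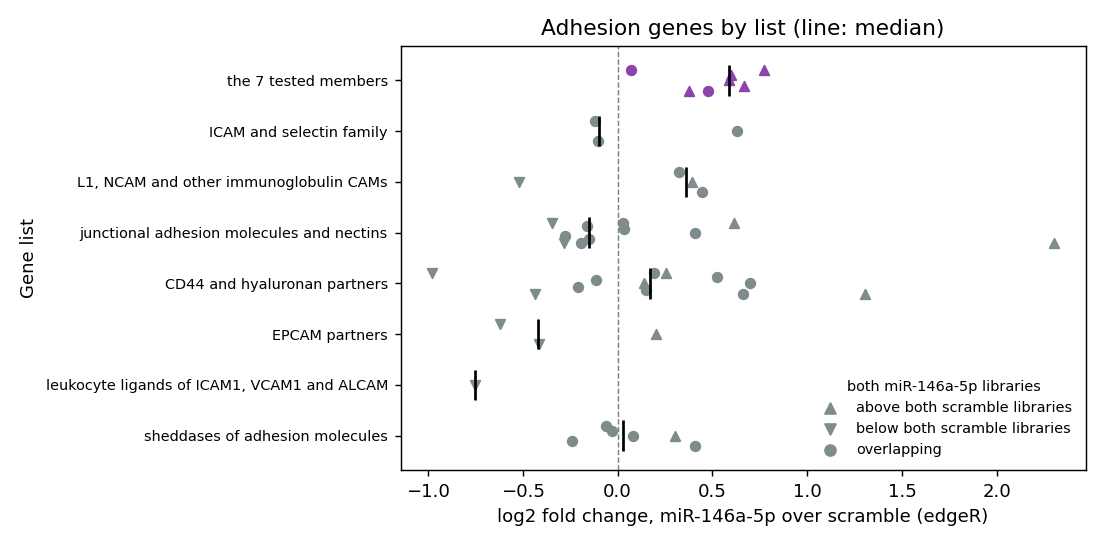
Log2 fold change of miR-146a-5p over scramble by edgeR for the 7 tested members (purple) and the 40 other tested adhesion genes (grey), by list, with the median as a line and the marker giving the position of the miR-146a-5p libraries against the scramble libraries. The members have a median of 0.59 and no value below 0, and the other lists have medians between -0.75 and 0.36.

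Genes with a pattern across the 4 libraries most like that of ICAM1 or CD44 were looked for by the Euclidean distance of log2 CPM centred on each gene's mean, over 9409 genes with at least 10 CPM on average. Nearest to ICAM1 were TPCN1, an endolysosomal channel (distance 0.051), ARHGEF40 (0.076) and IRF9, a subunit of the interferon-activated factor ISGF3 (0.078). Nearest to CD44 were BTN2A1 (0.038), SMIM14 (0.039) and HOMER2 (0.045). Within a distance of 0.1 lay 10 of the 9409 genes for ICAM1 and 37 for CD44. The genes named here were thus not alone in this likeness over 4 libraries.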

How the data were processed

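Per the labels' protocols, total RNA of 4 cell samples went into TruSeq RNA libraries. Tools and build named in the submitters' processing notes are hg19, DESeq2, HTSeq 0.6.1, HISAT2 2.0.1 and cutadapt 1.9.1, with no role or order. The deposited table gives estimated counts per gene, 34.3% of them not whole where a gene was above 0 in every library, and TPM made by the authors. The authors' fold change (a linear ratio), its log2 value and the p-value and adjusted p-value compare miR-146a-5p with scramble, per the file headers.

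Counts were rounded and tested with edgeR 4.0.16 (R 4.3.3, quasi-likelihood, TMM, filterByExpr with minimum count 10 and minimum total 15, group as the only term), with Benjamini-Hochberg adjustment over 14810 genes at 0.05. DESeq2 1.42.0, limma 3.58.1 (voom, and on log2(TPM + 1)), other scalings, no filter, GC and length offsets, a replicate block and leaving out each library were alternatives. CPM are rounded counts scaled to the library total, with a prior count of 2 before log2. A standard error is the log2 fold change over the root of its F statistic. Intervals and floors cover counting error or library spread only. The edgeR and DESeq2 steps were tested on simulated data. The members, lists and motif were chosen with earlier results of these data known. Named list genes are those called by either tool, otherwise the 2 with the smallest edgeR p per list. Some genes that this rule names are not reported here. EZR, MSN, ESRP1, ADAM10, ICAM2 and listed genes at or near 0 were named after their values were seen. GC content and 3' UTRs were taken from GENCODE release 29 and promoters from RefSeq, both on GRCh38, whereas the authors' notes name hg19. Coordinates on hg19 were not used.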

Additional observations from a re-analysis of the deposited data

How the results depend on the processing

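Counts of calls depended on the test and on the scramble libraries. Over all tested genes edgeR called 0, DESeq2 52 and the edgeR fit with a replicate block 5, and fits that left out 1 library called between 8 and 8421. Members called ranged from 0 to 6 and other adhesion genes from 0 to 19 among those left-out fits, and both counts were 0 under every other alternative run. The fits without a scramble library, where all counts above 0 arose, also called many of all tested genes, in the shares given earlier. These counts alone therefore do not set members or other adhesion genes apart from other genes. Same-numbered libraries deviated from their group means with a correlation of -0.145. A single value from 2 libraries per group cannot decide whether the numbers pair the libraries. The block with crossed numbers, chosen after seeing the data, called 0 genes, 0 members and 0 other adhesion genes. Over fits without 1 library, ALCAM ranged from -0.26 to 2.11, MCAM from -0.16 to 0.35, ADAM17 from -0.58 to 0.24 and ICAM5 from -0.45 to 0.19 in log2 fold change, so their signs turned. ICAM5, at -0.12 with all libraries, was also at 0.135 on log2(TPM + 1) and 0.10 with GC and length offsets. SMIM14 was at -0.17 with the offsets. The cause was not tested in these cases. Of 91 values of the 7 tested members under alternatives, 79 kept direction and side of the threshold, 10 passed the threshold with the same sign and 2 turned sign, all 12 without a scramble library. ALCAM, at -0.26 without scramble replicate 2, was past the threshold as well as turned. Low depth limits EPCAM, CADM1 and CLDN7, and VCAM1 was not detectable.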
